A study of Mus musculus with 47 samples.

Results

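The comparison described here is 24 h of serum starvation against growth medium in C2C12 myoblasts in which a MyoD1 transgene was induced with doxycycline (dox) in both groups. Its members are the 3 libraries labelled as 24 h of starvation with dox and the 3 labelled as undifferentiated with dox, 6 of the 47 RNA-seq libraries of the series. C2C12 is an immortalized mouse skeletal muscle myoblast line, and each library compared here came from the same polyclonal derivative, C2C12 iMyoD1, which keeps its endogenous Myod1 and carries Halo-tagged MyoD1 behind the dox-responsive TRE3G promoter, inserted by PiggyBac transposition. Not every nucleus of that line holds the tagged protein under dox, so a library mixes induced and uninduced cells. All cells were given dox for 24 h: the starved group was switched at the same time to low horse serum with insulin, transferrin and selenium, and the other stayed in growth medium with fetal bovine serum, which is called 0 h. Differentiation wells were seeded more densely than undifferentiated wells, so medium, density and supplement cannot be told apart in these values. A further 6 libraries of the same line, 3 at 0 h and 3 at 24 h of starvation, had received vehicle for 24 h in place of dox and are called untreated; they give the response to serum withdrawal without induction and share no library with the dox comparison.

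Myoblasts proliferate while serum mitogens are present. When serum is withdrawn they leave the cell cycle, lose inhibitors of myogenic helix-loop-helix factors such as the Id proteins, start to express myogenin, and later fuse into myotubes and assemble sarcomeres. MyoD1 is the helix-loop-helix factor that directs cells into this program, and the question put to these libraries is which parts of the serum-withdrawal response persisted while it was induced.

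Total estimated counts were between 17870326 and 22238898 per library at 0 h with dox and between 23424095 and 42023479 at 24 h with dox, so the starved libraries were deeper. No replicate was a copy of another, since every pair differed by more than sampling noise (chi-square divided by the number of genes, 3.04 to 18.9). Levels are given as CPM, estimated counts relative to library size after scaling with TMM factors, in the order of replicates 1, 2 and 3, and changes as log2 fold changes with their standard error (SE) from edgeR's quasi-likelihood test. In counts of genes, a gene was called at a Benjamini-Hochberg adjusted p under 0.05 and a change over 2-fold, while the interaction and the change of a single named gene were called at the adjusted p alone. Since counts are not corrected for length, levels are compared between groups and not between genes. In such bulk libraries fewer cells of a kind and less RNA per cell cannot be told apart.

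Myod1 itself, the induced gene, was at 209.9, 187 and 201 CPM at 0 h with dox and at 129, 123 and 116 CPM at 24 h with dox. It fell by 0.68 on the log2 scale (SE 0.06, edgeR adjusted p = 4.04e-07). The untreated libraries were at 189.6, 179.9 and 189 CPM at 0 h, inside the span of the dox libraries or just under it, and at 151, 146 and 141 CPM at 24 h. The Myod1 count did not separate dox from untreated libraries at 0 h, and at 24 h the 3 dox libraries were the lower ones (interaction -0.37 ± 0.08, adjusted p = 0.00168, not called with library totals only). Whether reads of the tagged transgene were counted in it is not given in the sources used here. The myoblast label held: 8 of 10 myoblast markers passed the filter on low counts, among them Des, Itga7, Ncam1 and Cdh15, while Chrdl2 had no count and Msc was near 0. Their summed level was between 1230 and 1307 CPM at 0 h and between 706 and 716 CPM at 24 h with dox, and all 8 were lower at 24 h at an adjusted p under 0.05. Endothelial markers summed to at most 0.402 CPM in any dox library and leukocyte markers to at most 4.97 CPM, with Ptprc, Cd3e and Tyrobp at or near 0. Epithelial markers summed to between 13.6 and 17.5 CPM at 0 h and between 1.07 and 1.44 CPM at 24 h, with nearly all of the 0 h level from the keratin Krt14 and with Epcam and Krt18 at or near 0. Adipocyte markers summed to between 33.0 and 36.7 CPM at 0 h and 16.5 to 16.7 CPM at 24 h, with Lep and Cfd at 0, and osteoblast markers to 50.2 to 55.1 CPM and 26.3 to 28.7 CPM, with Ibsp and Dlx5 at 0. Neuronal markers went from between 279 and 283 CPM to between 97.3 and 105 CPM, with Stmn2 down by -3.83 and Gap43 up by 1.24 on the log2 scale. The part of such cells or genes in the results was not tested.

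Of 13943 genes tested, 723 rose (5.19%) and 1621 fell (11.6%) between 0 and 24 h with dox, 16.8% in either direction. At the adjusted p alone, 34.0% rose and 34.0% fell, and in 71.1% of the genes tested the 3 libraries of one group lay wholly above those of the other, so a clean separation of the groups was the usual case and is no mark of a large change. In the untreated libraries 13632 genes were tested, of which 1293 rose (9.49%) and 2269 fell (16.6%).

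Most of what starvation changed with dox, it also changed without. Over the 13410 genes tested in every fit, 487 genes rose over 2-fold in both settings, which is 75.6% of the 644 that rose with dox (61.2% of 1066 with no filter on low counts) and 39.2% of the 1243 that rose untreated. A further 1262 genes fell in both, 84.0% of the 1503 that fell with dox and 57.4% of the 2200 that fell untreated. At the adjusted p alone, 87.5% of the genes that rose untreated and 90.0% of those that fell untreated moved the same way with dox. The rank correlation of the changes with and without dox over these genes was 0.844, a description across genes of 12 libraries, since genes are not independent replicates.

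The sizes of the changes also differed. The genes that rose untreated had a median change of 1.38 on the log2 scale there and of 0.85 with dox, and those that fell untreated had a median of -1.60 there and of -1.14 with dox. Chosen on the dox calls instead, the medians were 1.47 with dox and 1.60 untreated for genes that rose, and -1.50 with dox and -1.78 untreated for genes that fell, so part of each gap follows from the choice of setting. The interaction test, which asks whether the change with dox differs from the change without, placed 773 of the 1243 untreated risers (62.2%) as weakened with dox and 4 as strengthened, and 991 of the 2200 untreated fallers (45.0%) as weakened and 93 as strengthened. These genes were chosen on untreated libraries that also enter the interaction, which favours weakened over strengthened, so the shares are a description of that set. Among genes called in both settings 178 of 487 risers and 384 of 1262 fallers were weakened. The 4 strengthened risers became 10 with DESeq2, 9 with RLE factors, 15 with no filter on low counts and 25 with library totals only. Across all 14448 genes the interaction was above 0 for 1926 (13.3%) and below 0 for 2996 (20.7%), so that 39.1% of interaction calls were above 0. That split rests on the scaling: it was 48.8% with RLE factors and 73.1% with library totals only, under which the median untreated change moved to -0.12, and with library totals only 467 of 934 risers and 60.9% of fallers were weakened. For the remaining 466 risers (37.5%) and 1116 fallers (50.7%) the interaction was not called, which does not show that the change was equal.

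**Figure D1:**
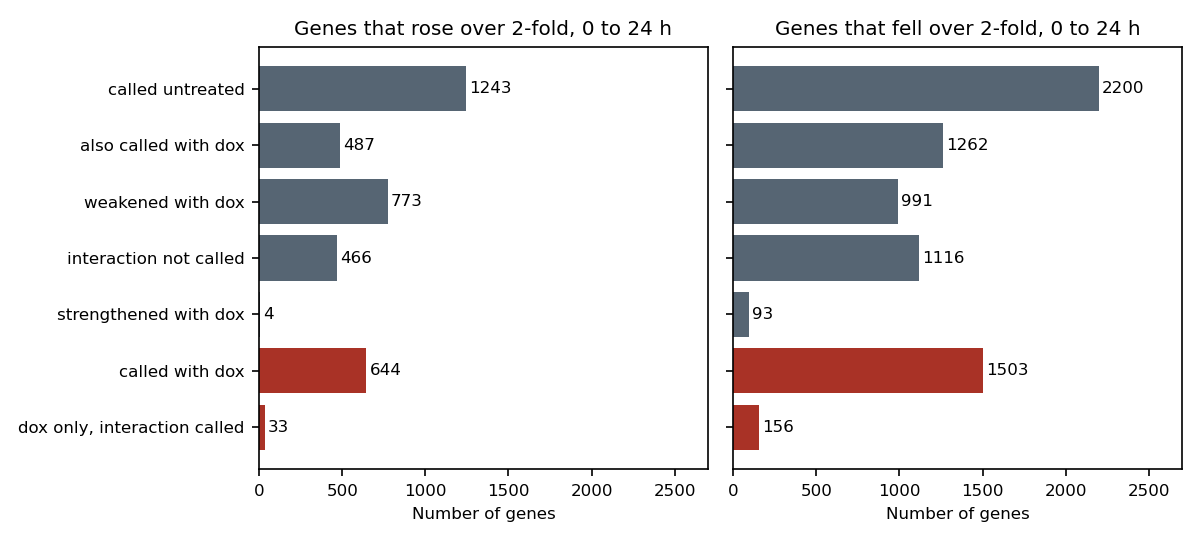
Numbers of genes that rose (left) or fell (right) over 2-fold between 0 and 24 h, among 13410 genes tested in every fit. Grey bars follow the genes called in the untreated libraries and red bars those called with dox; 487 risers and 1262 fallers were called in both.

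**Figure D2:**
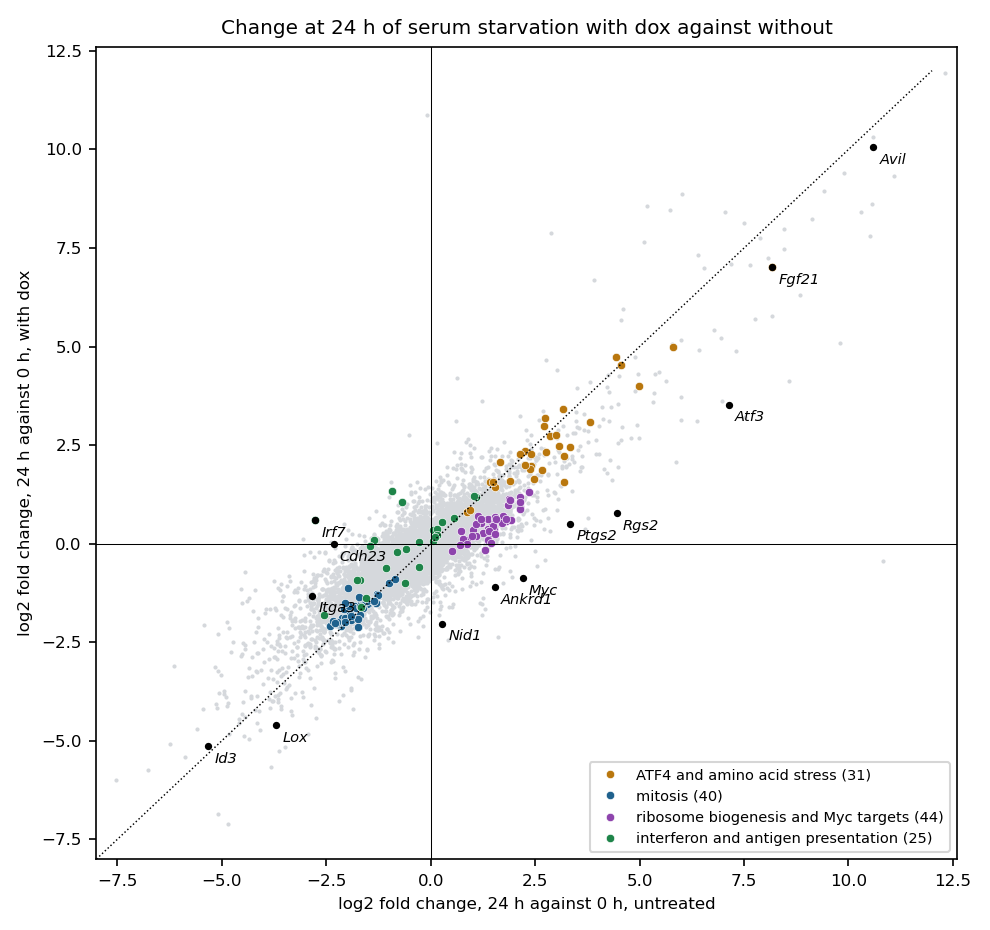
Each point is a gene, with its log2 fold change at 24 h untreated on the x axis and with dox on the y axis, and the dotted line marks equal change. Stress genes (orange) and mitosis genes (blue) lie near the line, the 44 ribosome biogenesis genes (purple) lie below it, and Rgs2, Atf3, Ptgs2 and Myc lie far below it.

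For 4 gene groups whose members moved together, promoter windows of the members are shown. Promoter windows of 300 bases, 250 before to 50 after the start, were taken from RefSeq on GRCm38.p6 for 27025 gene symbols, and a motif was sought on both strands. TGATGNAA, the core of the C/EBP-ATF response element, lay in a window of 10 of the 26 genes with a window in the list of targets of the amino acid stress factor ATF4, against 4.51% of all symbols. The following 3 are the genes of that list with the motif that rose most with dox, and capitals mark it: Fgf21 at chr7:45615441-45615740 (minus strand), Chac1 at chr2:119350992-119351291 (plus strand) and Trib3 at chr2:152344011-152344310 (minus strand).
Fgf21: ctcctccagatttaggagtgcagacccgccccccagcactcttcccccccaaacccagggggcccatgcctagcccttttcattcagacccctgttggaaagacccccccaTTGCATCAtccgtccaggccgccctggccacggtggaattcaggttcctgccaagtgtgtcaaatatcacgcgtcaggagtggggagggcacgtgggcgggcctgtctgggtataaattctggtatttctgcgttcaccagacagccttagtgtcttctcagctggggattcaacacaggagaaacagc
Chac1: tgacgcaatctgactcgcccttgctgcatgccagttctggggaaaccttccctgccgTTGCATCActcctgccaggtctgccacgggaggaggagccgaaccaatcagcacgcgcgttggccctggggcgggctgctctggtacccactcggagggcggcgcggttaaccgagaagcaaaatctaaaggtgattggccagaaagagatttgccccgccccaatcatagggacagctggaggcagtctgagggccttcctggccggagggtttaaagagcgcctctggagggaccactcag
Trib3: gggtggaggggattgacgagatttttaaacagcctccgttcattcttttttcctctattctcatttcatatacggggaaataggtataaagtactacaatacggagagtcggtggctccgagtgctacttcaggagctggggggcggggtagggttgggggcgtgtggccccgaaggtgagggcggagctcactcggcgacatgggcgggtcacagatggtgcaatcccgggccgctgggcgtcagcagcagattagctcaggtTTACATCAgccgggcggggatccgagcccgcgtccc

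TTTGAA, the letters of the cell cycle homology element of late cell cycle genes, lay in a window of 23 of 33 mitosis genes, against 20.2% of all symbols. The E2F-type octamer TTTCGCGC lay in a window of 7 of 32 DNA replication genes, against 0.374% of all symbols. The mitosis genes and the replication genes with the motif that fell most with dox were Anln at chr9:22389157-22389456 (minus strand), Ccnb2 at chr9:70421505-70421804 (minus strand), Orc1 at chr4:108579204-108579503 (plus strand) and Uhrf1 at chr17:56304063-56304362 (plus strand), again with the motif in capitals.
Anln: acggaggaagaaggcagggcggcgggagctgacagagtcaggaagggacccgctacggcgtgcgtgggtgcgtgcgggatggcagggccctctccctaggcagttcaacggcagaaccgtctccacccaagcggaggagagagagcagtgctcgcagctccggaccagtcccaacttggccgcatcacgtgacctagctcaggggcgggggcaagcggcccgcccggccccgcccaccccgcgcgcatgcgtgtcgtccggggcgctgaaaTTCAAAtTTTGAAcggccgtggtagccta
Ccnb2: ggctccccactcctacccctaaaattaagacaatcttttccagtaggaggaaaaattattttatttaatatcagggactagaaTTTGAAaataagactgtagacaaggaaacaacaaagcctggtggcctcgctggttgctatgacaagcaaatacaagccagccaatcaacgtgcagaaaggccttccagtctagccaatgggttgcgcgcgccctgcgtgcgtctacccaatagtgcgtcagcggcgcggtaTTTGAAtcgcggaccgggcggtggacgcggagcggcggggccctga
Orc1: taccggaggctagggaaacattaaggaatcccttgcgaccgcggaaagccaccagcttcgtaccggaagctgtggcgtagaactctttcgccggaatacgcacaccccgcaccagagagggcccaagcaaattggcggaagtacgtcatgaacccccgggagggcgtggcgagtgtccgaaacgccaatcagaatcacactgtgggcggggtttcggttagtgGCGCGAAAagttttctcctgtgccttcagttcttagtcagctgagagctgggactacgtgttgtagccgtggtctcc
Uhrf1: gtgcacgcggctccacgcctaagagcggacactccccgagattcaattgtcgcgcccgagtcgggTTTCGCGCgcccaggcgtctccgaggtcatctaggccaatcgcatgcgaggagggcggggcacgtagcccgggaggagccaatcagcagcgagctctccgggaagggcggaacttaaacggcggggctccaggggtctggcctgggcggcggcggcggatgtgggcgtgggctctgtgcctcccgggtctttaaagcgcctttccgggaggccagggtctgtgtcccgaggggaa

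CACGTG, the E-box that Myc and its partner Max can bind, lay in a window of 9 of 38 ribosome biogenesis genes, against 8.09% of all symbols. Grwd1 at chr7:45830740-45831039 (minus strand) and Tsr1 at chr11:74897830-74898129 (plus strand) are the genes with this motif whose rise differed most between dox and untreated libraries. A match describes the letters of a window and is no evidence of binding.
Grwd1: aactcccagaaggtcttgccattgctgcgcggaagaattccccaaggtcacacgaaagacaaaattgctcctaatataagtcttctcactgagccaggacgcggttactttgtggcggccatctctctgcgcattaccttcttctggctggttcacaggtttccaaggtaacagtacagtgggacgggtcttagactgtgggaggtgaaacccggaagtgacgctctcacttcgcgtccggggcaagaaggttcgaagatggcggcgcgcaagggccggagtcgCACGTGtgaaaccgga
Tsr1: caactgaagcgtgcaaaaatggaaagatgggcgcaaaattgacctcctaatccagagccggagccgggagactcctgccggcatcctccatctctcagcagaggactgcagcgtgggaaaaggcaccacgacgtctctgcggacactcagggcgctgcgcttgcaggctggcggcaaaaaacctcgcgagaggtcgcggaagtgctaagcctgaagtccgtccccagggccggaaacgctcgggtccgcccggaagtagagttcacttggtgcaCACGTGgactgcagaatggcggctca

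The amino acid stress genes rose as a group. Of 31 ATF4 targets tested, 29 rose over 2-fold with dox and all 31 rose at the adjusted p alone, with a median of 2.29 on the log2 scale where the median of all genes was 0.01. Without dox 29 also rose, with a median of 2.72. Fgf21, a stress-induced hormone, was at 0.299, 0.203 and 0.212 CPM at 0 h and at 29.2, 31.1 and 34.1 CPM at 24 h with dox, a rise of 7.01 ± 0.16 on the log2 scale (adjusted p = 8.58e-13). Chac1, a glutathione-degrading enzyme, went from 5.08, 4.78 and 4.97 CPM to 138, 128 and 129 CPM (4.75 ± 0.07, adjusted p = 4.64e-14). Trib3, a pseudokinase of the same stress response, went from 7.77, 7.89 and 8.41 CPM to 186, 182 and 182 CPM (4.53 ± 0.07, adjusted p = 3.46e-14). In each of them the 3 starved libraries lay far above the 3 growth medium libraries. The interaction was not called for these 3 genes, with -1.22, 0.26 and -0.08. It was below 0 for 13 of the 31 and above 0 for 2, a split that rests on the scaling, with 12 and 6 under DESeq2 and 10 and 9 with library totals only. The growth factor Gdf15 rose by 5.00 with dox and by 5.79 untreated (interaction adjusted p = 0.00678), whereas Asns, asparagine synthetase, and Shmt2, a mitochondrial enzyme of one-carbon metabolism, both named after their values were seen, had the larger rises with dox. Asns rose by 3.19 with dox and by 2.73 untreated (interaction adjusted p = 0.00166).

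Mitosis genes fell in both settings. Of 40 mitosis genes tested, 39 fell over 2-fold with dox and 39 untreated, with medians of -1.63 and -1.86. Plk1, the mitotic kinase, was at 113, 101 and 106 CPM at 0 h and 23.5, 25.8 and 27.1 CPM at 24 h with dox, and fell by 2.05 on the log2 scale (SE 0.07, adjusted p = 1.72e-11). Ccnb2, a mitotic cyclin, went from 104, 109.8 and 121 CPM to 24.1, 29.3 and 25.5 CPM (-2.08 ± 0.08, adjusted p = 9.68e-11). In neither gene did the groups overlap. The fall of Plk1 was not called different untreated (interaction 0.11, adjusted p = 0.427), and that of Ccnb2 was slightly larger there (interaction 0.28, adjusted p = 0.0481). The DNA replication genes fell less: 16 of 40 fell over 2-fold and 38 at the adjusted p alone, with a median of -0.83 with dox and -0.96 untreated. Tk1, thymidine kinase, fell most among them, from 118, 119 and 127 CPM to 19.9, 20.6 and 22.4 CPM (-2.52 ± 0.06, adjusted p = 1.89e-12). Gins4, a part of the replicative helicase, rose from 35.7, 36.5 and 42.2 CPM to 51.3, 49.7 and 49.3 CPM (0.41 ± 0.07, adjusted p = 1.55e-04).

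Ccnd1 fell and Cdkn1a rose with and without dox. Ccnd1, the serum-responsive D cyclin, whose gene overlaps LTO1 on the opposite strand, was at 142, 123 and 125 CPM at 0 h and 16.7, 18.4 and 18.7 CPM at 24 h with dox (-2.84 ± 0.07, adjusted p = 1.88e-12). In untreated libraries it went from 319, 309.7 and 303 CPM to 54.5, 48.4 and 50.9 CPM, so it stood higher there at both times. Cdkn1a, the CDK inhibitor p21, rose from 91.8, 89.99 and 82.95 CPM to 409.8, 388 and 402 CPM (2.19 ± 0.06, adjusted p = 2.47e-12) and rose further untreated (interaction -0.38 ± 0.08, adjusted p = 0.00115, not called with library totals only). Of 14 genes of this list tested, 2 rose and 3 fell over 2-fold with dox, where 5.19% and 11.6% of all genes did. The other riser was Ccnd2 at 1.77, and the other fallers were Cdk6 at -1.50 and Cdkn1c at -1.22. Cdkn1a also belongs to the p53 targets, of which 11 of 20 rose and 1, Perp, fell, with a median of 1.10. None fell over 2-fold without 0 h replicate 2, 0 h replicate 3 or 24 h replicate 3. Eda2r, a death receptor relative, rose most among these, from 11.7, 12.7 and 12.4 CPM to 88.9, 83.9 and 82.2 CPM (2.81 ± 0.07, adjusted p = 1.61e-12).

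Among the inhibitors of myogenic helix-loop-helix factors, 6 of 14 fell over 2-fold with dox, 12 fell at the adjusted p alone and none rose over 2-fold, with a median of -0.85. Id3, which sequesters the partners of MyoD1, was at 274, 273 and 312 CPM at 0 h and 8.72, 8.07 and 7.47 CPM at 24 h with dox, a 35.2-fold fall (log2 -5.14 ± 0.09, adjusted p = 6.20e-14). Id2 went from 30.3, 32.2 and 33.7 CPM to 1.53, 1.14 and 1.34 CPM (-4.55 ± 0.11, adjusted p = 1.73e-12), and Id1 from 39.6, 40.6 and 45.5 CPM to 6.28, 6.19 and 7.45 CPM (-2.63 ± 0.09, adjusted p = 2.60e-11). Id3 fell by 5.32 on the log2 scale untreated (interaction 0.13, adjusted p = 0.527), while Id1 and the Notch target Hes1 fell further with dox than without (interactions -0.71 ± 0.12 and -0.84 ± 0.15, adjusted p = 1.37e-04 and 2.72e-04).

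Markers of myogenic differentiation were low at this time. Myog, the gene of myogenin, was at 0.0427, 0.102 and 0.265 CPM at 0 h and 4.20, 4.15 and 3.77 CPM at 24 h with dox (4.93 ± 0.37, adjusted p = 6.52e-08). The growth medium value rests on 8 counts over 3 libraries, and leaving out 1 library moved the change between 4.45 and 5.79, the latter without 0 h replicate 3. Untreated libraries at 24 h held 5.09, 5.43 and 5.40 CPM, and the interaction was not called (-1.58 ± 0.82, adjusted p = 0.154). Of 22 myogenic regulators tested, 3 rose and 1 fell over 2-fold, where 5.19% and 11.6% of all genes did. At the adjusted p alone 16 fell, where 34.0% of all genes did. Pitx3 was the gene that fell over 2-fold (-2.11), with 2 falling without 0 h replicate 2. The risers were Myog, Mef2b and Rbm24, of which the latter 2 stayed at or under 1.20 CPM, and Mef2b overlaps a gene on its own strand so that its reads may be shared. Myf5, another determination factor, differed between settings: it fell from 9.81, 9.16 and 10.2 CPM to 4.90, 4.86 and 5.06 CPM with dox and rose from 21.2, 18.1 and 18.96 CPM to 38.7, 36.03 and 42.2 CPM untreated (interaction -2.00 ± 0.13, adjusted p = 6.08e-09).

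The fusion genes Mymk and Mymx were measured at a few CPM or less. Mymk, which encodes myomaker, was at 1.24, 1.17 and 1.69 CPM and 1.85, 2.00 and 2.45 CPM with dox (0.64 ± 0.25, adjusted p = 0.0339, a call lost when any of 4 libraries was left out, with DESeq2 and when all 12 libraries were fitted together). Untreated, it went from 0.0625, 0.368 and 0.419 CPM to 1.64, 2.43 and 2.29 CPM, so the starved groups with and without dox overlapped and the growth medium groups did not (interaction -2.23 ± 0.50, adjusted p = 0.00232). Mymx, which encodes myomixer, rose from 0.341, 0.102 and 0.265 CPM to 1.12, 1.06 and 0.959 CPM (2.11 ± 0.40, adjusted p = 3.79e-04). Of 26 sarcomere genes that passed the filter, out of 50, 7 rose and 5 fell over 2-fold, with a median of 0.10, and of 30 fusion, acetylcholine receptor and calcium handling genes 2 rose and 9 fell, where 5.19% of all genes rose and 11.6% fell, so the share of risers in the latter list was near that of all genes. The 5 sarcomere genes that fell were Tnnt1, Tnnt2, Tnnc2, Tpm2 and Ldb3. Mylpf, a fast myosin light chain, rose from 0.597, 0.305 and 0.582 CPM to 2.79, 2.98 and 2.32 CPM (2.43 ± 0.29, adjusted p = 7.37e-06), and Myom2, an M-band protein, rose by 1.804 with dox and by 4.21 untreated (interaction adjusted p = 4.56e-05). Actc1, cardiac actin, had 3 counts at 0 h and 138 at 24 h over the 3 dox libraries of each group, a ratio of 27.3 with a 95% counting interval from 9.15 to 134. Tnnt2, a troponin T that myoblasts already express, fell from 20.8, 16.1 and 21.7 CPM to 3.23, 3.88 and 3.88 CPM (-2.40 ± 0.13, adjusted p = 2.83e-09). Dysf, the membrane repair protein dysferlin, rose from 13.1, 11.95 and 10.95 CPM to 44.5, 43.5 and 40.5 CPM (1.84 ± 0.08, adjusted p = 2.44e-10), and by 1.60 untreated.

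**Figure D3:**
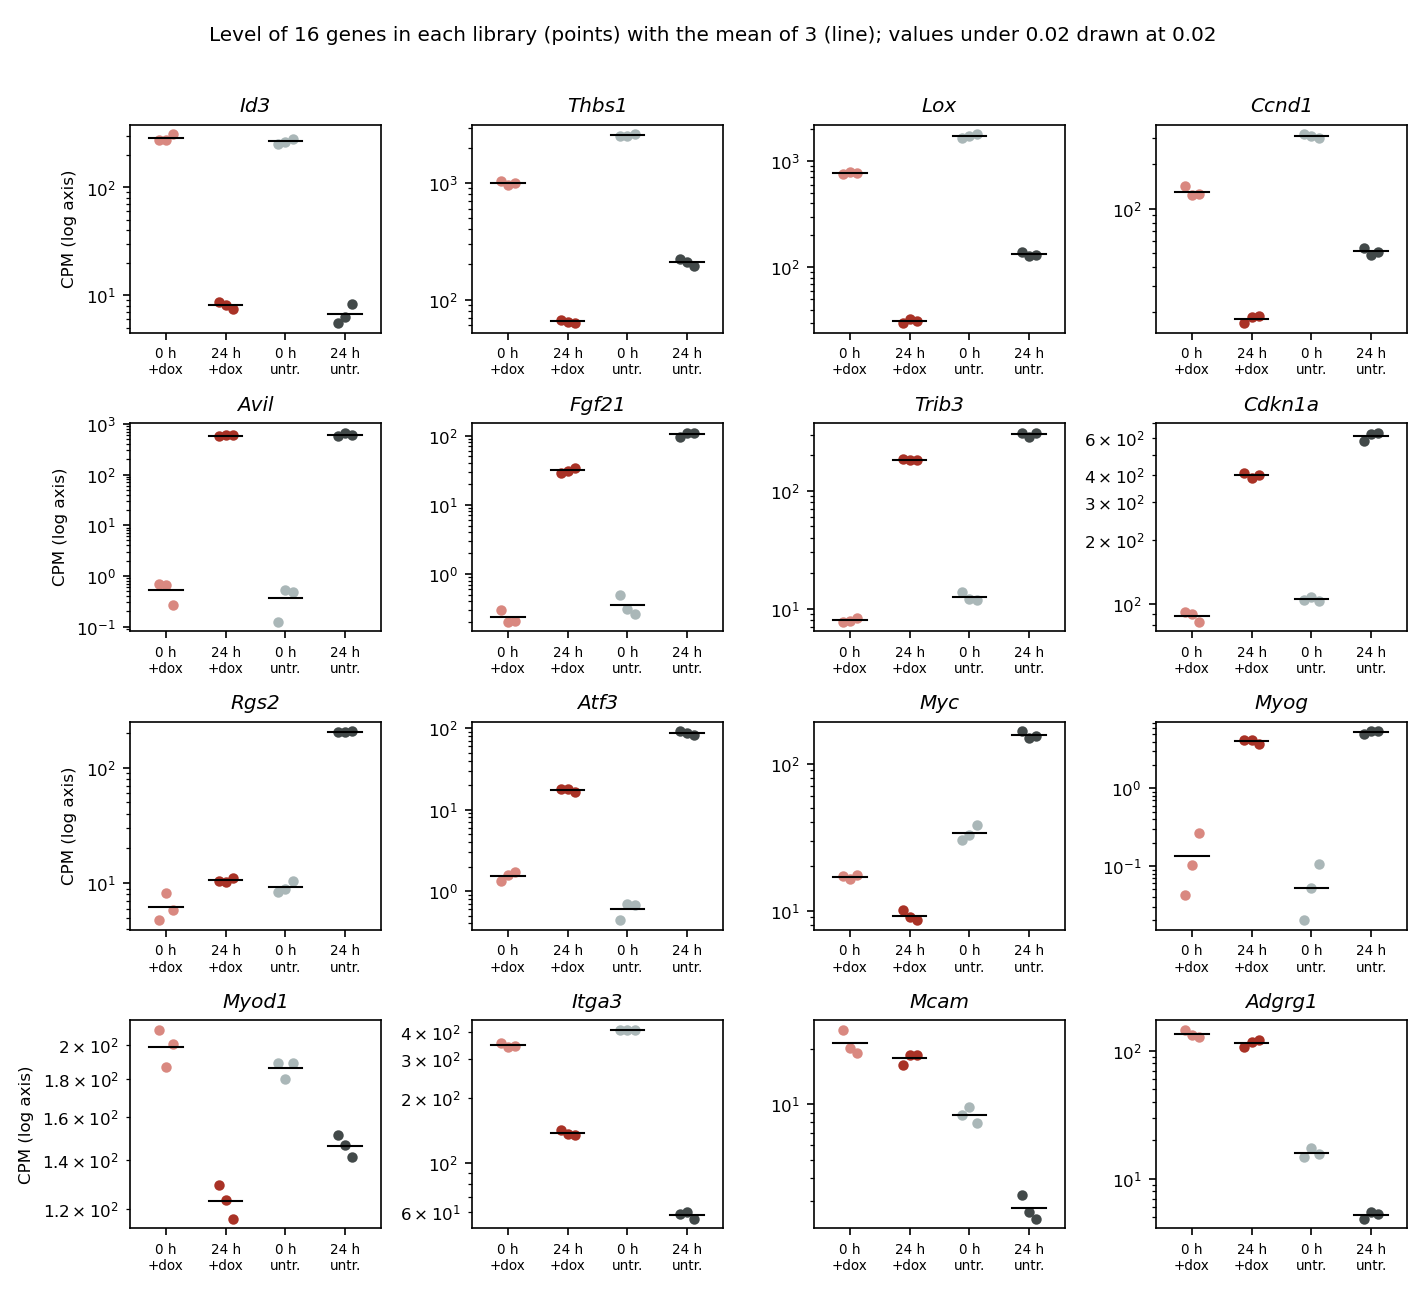
Level of 16 genes in CPM on a log axis for each of the 12 libraries (points) with the mean of each group of 3 (line), dox groups in red and untreated groups in grey. Id3, Thbs1, Lox and Ccnd1 fell and Avil, Fgf21, Trib3 and Cdkn1a rose in both settings, while Rgs2, Atf3 and Myc were highest in the untreated libraries at 24 h, and Mcam and Adgrg1 fell over 2-fold only untreated.

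Matrix genes fell in both settings. Of 48 extracellular matrix genes tested, 38 fell and 2 rose over 2-fold with dox, with a median of -1.58, and 36 fell untreated with a median of -1.61. Lox, the collagen cross-linking oxidase, was at 756, 785 and 768 CPM at 0 h and 29.98, 33.1 and 31.3 CPM at 24 h with dox, a 24.3-fold fall (log2 -4.60 ± 0.06, adjusted p = 2.48e-14). It fell less untreated, from a mean of 1714 to 134 CPM (interaction -0.96 ± 0.08, adjusted p = 9.83e-08). Thbs1, the matricellular protein thrombospondin, went from 1047, 961 and 994 CPM to 67.1, 64.6 and 62.7 CPM (-3.94 ± 0.06, adjusted p = 5.22e-14). Fmod, the collagen-binding proteoglycan fibromodulin, had the largest fitted fall of the list, from 10.2, 7.43 and 10.5 CPM to 0.176, 0.0784 and 0.223 CPM (-5.73 ± 0.28, adjusted p = 8.21e-10). Fbln5, an elastic fiber protein, was one of the 2 that rose, from 39.8, 33.7 and 38.9 CPM to 104, 107 and 107 CPM (1.52 ± 0.07, adjusted p = 2.49e-10). The other was Dcn, the proteoglycan decorin, at 1.48, and 1 gene rose in place of 2 without 0 h replicate 1, 24 h replicate 2 or 24 h replicate 3.

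Related groups fell with the matrix. In the smooth-muscle-type contractile genes and targets of the mechanosensitive factor YAP, 16 of 27 fell over 2-fold and none rose, with a median of -1.10. Acta2, smooth muscle actin, was at 665, 651 and 696 CPM at 0 h and 47.8, 54.04 and 54.1 CPM at 24 h with dox (-3.68 ± 0.07, adjusted p = 1.25e-13). Ccn1, a secreted YAP target, fell from 95.4, 90.6 and 102 CPM to 10.2, 9.48 and 7.96 CPM (-3.38 ± 0.09, adjusted p = 2.89e-12). Of 29 genes of TGF-beta, activin and BMP signals, 16 fell and none rose over 2-fold, with Ltbp2, which binds latent TGF-beta, at -3.89 and Tgfb2, a ligand, at -2.67. Of 31 cytokine genes, 21 fell and 2, Fgf21 and Il11, rose. Il33, an alarmin cytokine, fell from 10.5, 9.00 and 12.4 CPM to 0.44, 0.509 and 0.402 CPM (-4.56 ± 0.21, adjusted p = 4.28e-10), and the chemokine Cxcl1 fell from 10.5, 15.01 and 15.1 CPM to 0.822, 1.02 and 1.09 CPM (-3.76 ± 0.19, adjusted p = 1.44e-09). Untreated medians were -1.41, -1.05 and -1.37 for these 3 lists, against -1.10, -1.09 and -1.30 with dox.

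**Figure D4:**
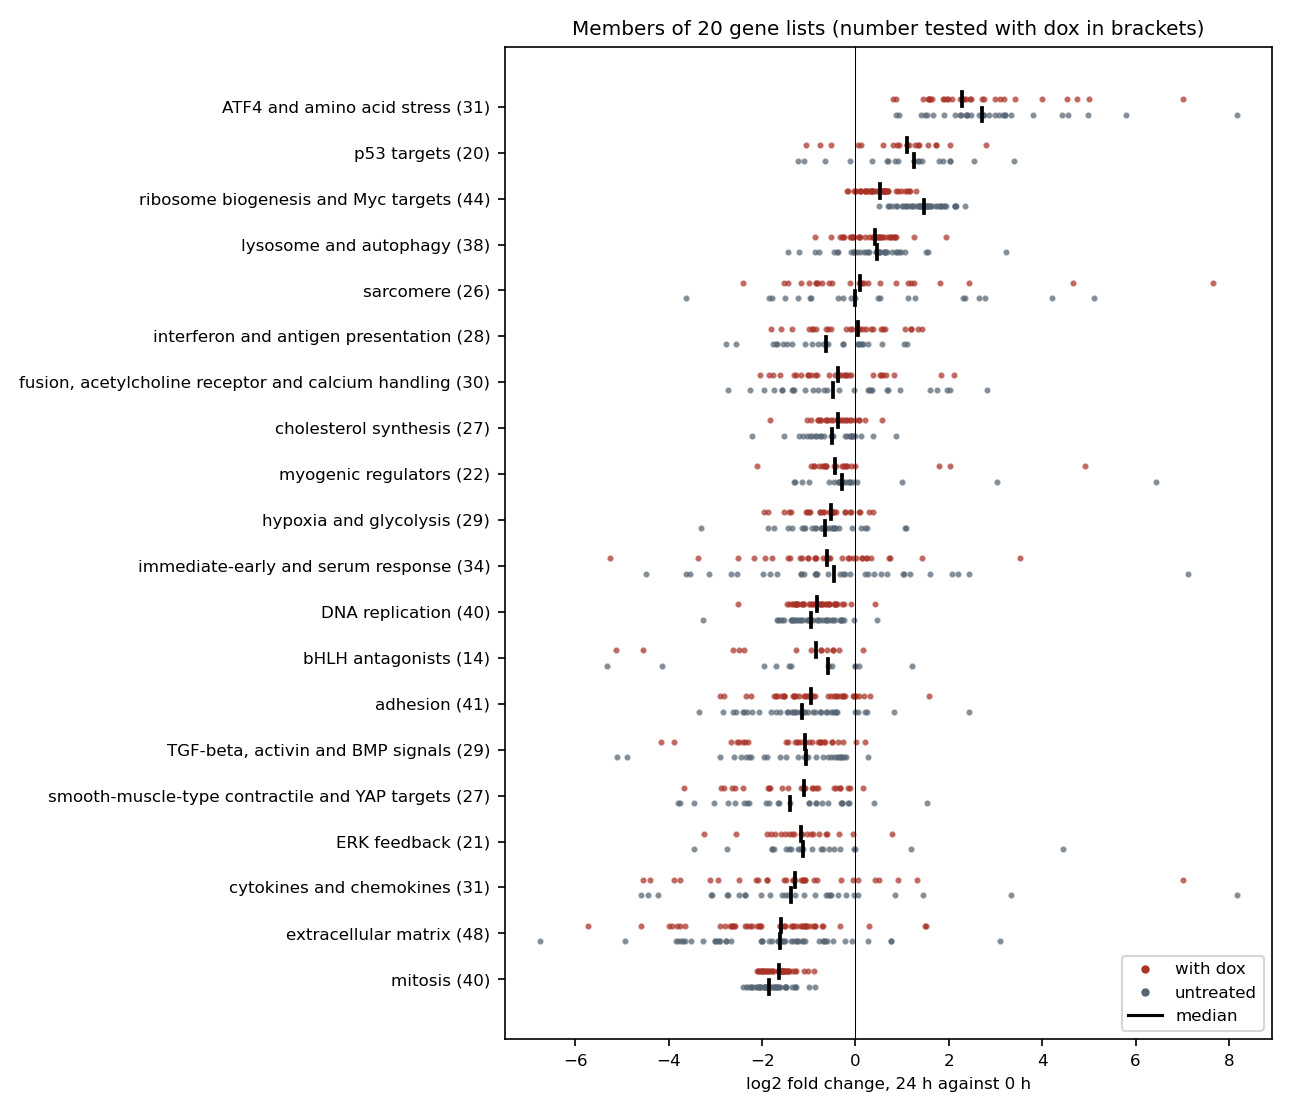
Log2 fold changes between 0 and 24 h of the members of 20 gene lists, with dox in red and untreated in grey, and medians as black bars. The ATF4 list lies to the right of 0 in both settings, the matrix and mitosis lists to the left, and the ribosome biogenesis list is shifted left with dox (median 0.52) relative to untreated (1.46).

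Ribosome biogenesis genes rose less with dox than without. Untreated, 37 of 44 genes of ribosome biogenesis and Myc targets rose over 2-fold and all 44 rose at the adjusted p alone, with a median of 1.46. With dox 5 rose over 2-fold (Nop14, Rrp9, Rrp12, Ftsj3 and Gtpbp4) and 36 at the adjusted p alone, with a median of 0.52. The interaction was below 0 for all 44, where 20.7% of all genes were, and for 43 with library totals only. Nop14, a factor of small subunit assembly, rose from 27.1, 25.8 and 25.8 CPM to 62.1, 64.8 and 65.8 CPM with dox (1.30 ± 0.06, adjusted p = 2.94e-10), but from 33.1, 33.9 and 34.9 CPM to 173, 176 and 177 CPM untreated (interaction -1.10 ± 0.07, adjusted p = 1.13e-08). Dkc1, the pseudouridine synthase dyskerin, whose gene overlaps Mpp1 on the opposite strand, was at 40.6, 39.6 and 40.7 CPM and 35.4, 33.6 and 37.7 CPM with dox and went from 71.8, 67.4 and 68.4 CPM to 166, 161 and 186 CPM untreated (interaction -1.51 ± 0.09, adjusted p = 2.88e-09). The untreated libraries stood higher than the dox libraries at 0 h for both genes and the gap widened at 24 h.

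Myc itself changed direction. Myc, the transcription factor that drives ribosome production, was at 17.3, 16.4 and 17.5 CPM at 0 h and 10.1, 9.09 and 8.61 CPM at 24 h with dox (-0.87 ± 0.09, adjusted p = 2.20e-06). Without dox it went from 30.2, 32.7 and 38.1 CPM to 166, 150.3 and 155 CPM (2.21 ± 0.08, adjusted p = 1.38e-11), and the interaction was -3.13 ± 0.12 (adjusted p = 1.17e-11). The 3 starved dox libraries were the lowest of the 12 and the 3 starved untreated libraries the highest.

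Rgs2, Atf3 and Ptgs2, among the genes with the largest interactions below 0, were lower at 24 h with dox than without. Rgs2, which restrains G protein signals, was at 4.78, 8.19 and 5.87 CPM and 10.5, 10.3 and 11.04 CPM with dox but went from 8.43, 8.84 and 10.4 CPM to 205, 203 and 207 CPM untreated (interaction -3.72 ± 0.18, adjusted p = 1.40e-10). Atf3, a stress-induced factor, rose from 1.32, 1.58 and 1.69 CPM to 17.7, 17.8 and 16.6 CPM with dox and from 0.437, 0.684 and 0.681 CPM to 91.4, 88.2 and 81.6 CPM untreated (interaction -3.66 ± 0.23, adjusted p = 4.95e-09). Ptgs2, the inducible prostaglandin synthase, was at 16.9, 17.6 and 21.5 CPM and 26.96, 23.1 and 28.3 CPM with dox against 25.7, 26.8 and 29.3 CPM and 309.7, 254 and 276 CPM untreated (interaction -2.88 ± 0.14, adjusted p = 1.36e-10). In all 3 genes the untreated starved libraries stood far above the other 9. Hmox1, heme oxygenase, rose by 1.61 with dox and by 4.34 untreated, and Socs2, a cytokine signal suppressor, moved by -0.68 and 1.90. Of 34 immediate-early and serum response genes 2, Atf3 and Nr4a3, rose and 12 fell over 2-fold with dox, where 5.19% and 11.6% of all genes did. The share that rose with dox was thus near that of all genes. Untreated 8 rose and 12 fell, where 9.49% and 16.6% of all genes did. The interaction was above 0 for 9 and below 0 for 13, where 13.3% and 20.7% of all genes were. The 9 became 5 without 0 h replicate 2, 24 h replicate 2 or 24 h replicate 3 of the dox groups, and the split was 12 and 12 with library totals only. Of 21 ERK feedback genes 13 fell and none rose over 2-fold with dox (1 rose without 0 h replicate 2), with the interaction above 0 for 4 and below 0 for 8 of 22. Among those that fell was Etv4, an ERK-dependent factor, from 24.4, 21.3 and 23.9 CPM to 2.82, 2.51 and 2.01 CPM (-3.25 ± 0.13, adjusted p = 9.77e-11).

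A few responses ran in opposite directions. Ankrd1, a YAP target, fell from 87.1, 83.3 and 86.3 CPM to 38, 38.5 and 41.6 CPM with dox and rose from 97.5, 98.3 and 98.1 CPM to 279, 285 and 294 CPM untreated (interaction -2.68 ± 0.07, adjusted p = 1.69e-13). In all, 7 genes that rose over 2-fold untreated fell over 2-fold with dox, and no gene did the reverse. These counts were 15 and 5 with no filter on low counts, 9 and 3 with all 12 libraries in 1 fit, and 5 and 1 with library totals only. Besides Ankrd1 they were Ch25h, Dgkg, Gm26870, Lpl, Mir17hg and Spry1, named here after their values were seen, and all 6 had a mean under 12 CPM in every group. For Gm26870 the libraries of the dox groups overlapped.

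Some changes passed 2-fold with dox and not in the same direction untreated. Among such genes the interaction was called in the direction of the dox change for 33 that rose and 156 that fell. They were chosen on libraries that also enter the interaction, which favours that direction. At the adjusted p alone, 13 and 113 of them also moved the same way untreated, and 2 and 17 moved the opposite way. The 156 include the 7 genes of the preceding paragraph that rose over 2-fold untreated. The 33 became 61 with library totals only and 103 with no filter on low counts. Cited2, a transcriptional coregulator, fell from 125, 118 and 119 CPM to 32.1, 36.4 and 34.2 CPM (-1.81 ± 0.06, adjusted p = 2.44e-11), where the untreated libraries were at 214, 217 and 219 CPM and 251, 255 and 245 CPM. Nid1, the basement membrane protein nidogen, and Vcan, the proteoglycan versican, were chosen after their values were seen. Nid1 had a mean of 372 ± 44.97 CPM (SD, n = 3) at 0 h and 90.3 ± 1.82 CPM at 24 h with dox, against 369.5 ± 7.95 CPM and 452 ± 46.7 CPM untreated (interaction -2.35 ± 0.11, adjusted p = 1.36e-10). Vcan had 198 ± 6.71 CPM and 53.5 ± 2.65 CPM with dox, against 273 ± 7.37 CPM and 229 ± 22.8 CPM untreated (interaction -1.66 ± 0.09, adjusted p = 6.86e-10). In both genes the starved dox libraries had the lowest mean of the 4 groups.

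Adhesion genes fell more often than they rose with dox. Of 41 adhesion genes tested, 19 fell and 1, Cadm3, rose over 2-fold with dox, where 11.6% and 5.19% of all genes did. Their median was -0.95. Untreated 25 fell, where 16.6% of all genes did, with a median of -1.15. The interaction was above 0 for 14 and below 0 for 10 of 42, where 13.3% and 20.7% of all genes were. The share below 0 was thus near that of all genes. Itga3, an integrin alpha subunit, fell from 356, 341 and 345 CPM to 142, 137 and 135 CPM with dox (-1.32 ± 0.05, adjusted p = 8.63e-11) and from 409.8, 408 and 407 CPM to 58.8, 59.7 and 55.6 CPM untreated (interaction 1.46 ± 0.07, adjusted p = 1.36e-10). Mcam, an immunoglobulin-type adhesion molecule, was at 25.3, 20.1 and 18.9 CPM and 16.3, 18.4 and 18.6 CPM with dox against 8.75, 9.73 and 7.91 CPM and 3.23, 2.62 and 2.40 CPM untreated (interaction 1.39 ± 0.19, adjusted p = 2.04e-05). Its small change with dox (-0.26 ± 0.10, adjusted p = 0.0333) lost its call when any of 3 libraries was left out.

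Cadm4, Cdh23 and Cdh15 were further adhesion genes of interest to the study. Cadm4 was at 32.9, 34.3 and 29.8 CPM and 30.3, 35.4 and 31.4 CPM with dox, a change of 0.01 ± 0.08 that was not called (adjusted p = 0.916), and fell by 1.29 on the log2 scale untreated (interaction 1.25 ± 0.14, adjusted p = 2.56e-06). Cdh23, an atypical cadherin, was at 3.97, 3.10 and 3.49 CPM and 3.44, 3.84 and 3.19 CPM with dox (-0.01 ± 0.18, adjusted p = 0.964) against 1.499, 0.789 and 1.94 CPM and 0.265, 0.154 and 0.413 CPM untreated (interaction 2.27 ± 0.46, adjusted p = 9.11e-04). Cdh15, the muscle cadherin, fell in both settings, from 117, 121 and 119 CPM to 59.8, 60.8 and 62.1 CPM with dox, and its interaction was not called (0.15, adjusted p = 0.135), although it was with DESeq2 (0.20), RLE factors (0.20) and library totals only (0.35). The adhesion receptor Adgrg1 was at 146, 132 and 128 CPM and 107, 117 and 122 CPM with dox, above the untreated 14.9, 17.4 and 15.8 CPM and 4.86, 5.55 and 5.29 CPM at both times (interaction 1.35 ± 0.12, adjusted p = 2.12e-07). The study chose Cadm4, Itga3, Mcam, Cdh15 and Cdh23 for being raised by dox, as measured in these libraries, and for MyoD1 binding. Their interactions, and a count of interactions that includes them, are therefore not independent evidence of a direction. Cadm1 was not among those genes but was named here for its large fall with dox, which favours an interaction below 0. It fell by 2.34 on the log2 scale with dox and by 1.33 untreated (interaction -1.06 ± 0.08, adjusted p = 2.03e-08), which is likewise not independent evidence.

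Interferon and antigen presentation genes moved both ways with dox. Of 28 tested, 5 rose (Ifi44, Isg15, Gbp2, Ifi27 and Xaf1) and 3 fell (Gbp3, Psmb8 and Rtp4) over 2-fold with dox, with a median of 0.06. Over all genes 5.19% rose and 11.6% fell, so the share of this list that fell was near that of all genes. Without 24 h dox replicate 3 the counts were 3 and 5 and the median -0.03, without 0 h replicate 3 they were 5 and 5, and when thinned to the smallest library 3 and 4, so the list had no stable direction with dox. Untreated, 2 rose and 9 fell of 25, where 9.49% and 16.6% of all genes did, with a median of -0.62. The share that rose untreated was near that of all genes. The interaction was above 0 for 9 of 29 and below 0 for none, where 13.3% and 20.7% of all genes were, and was not called for the other 20. Irf7, a transcription factor of this response chosen after its values were seen, had a mean of 4.43 ± 0.892 CPM (SD, n = 3) at 0 h and 6.63 ± 1.16 CPM at 24 h with dox, and 2.00 ± 0.226 CPM and 0.296 ± 0.094 CPM untreated (interaction 3.32 ± 0.35, adjusted p = 1.94e-06). Gbp2, a guanylate-binding protein, was at 0.555, 0.61 and 0.582 CPM and 1.17, 1.10 and 2.03 CPM with dox (1.33 ± 0.33, adjusted p = 0.00296). Isg15, a ubiquitin-like interferon product, rose by 1.20 with dox and 1.09 untreated (interaction adjusted p = 0.885).

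Of 27 cholesterol synthesis genes 2 fell over 2-fold (1 without 0 h replicate 1), where 11.6% of all genes did, and 20 at the adjusted p alone, with a median of -0.38. Of 15 fatty acid synthesis genes 3 fell, Elovl6, Pnpla3 and Acsl3, and of 29 hypoxia and glycolysis genes 8 fell and none rose. Eno1, the glycolytic enolase, fell from 1663, 1584 and 1652 CPM to 557, 616 and 627 CPM with dox (-1.43 ± 0.06, adjusted p = 1.76e-10) and less untreated (interaction -0.84 ± 0.09, adjusted p = 1.63e-06). Of 38 lysosome and autophagy genes 24 rose and 6 fell at the adjusted p alone, where 34.0% of all genes rose and 34.0% fell. Over 2-fold 2 rose, Sqstm1 and Flcn, near the 5.19% of all genes. Sqstm1, the autophagy receptor p62, went from 447, 458 and 464 CPM to 1769, 1698 and 1714 CPM with dox but reached 4889.9, 4672 and 4732 CPM untreated (interaction -1.35 ± 0.07, adjusted p = 1.93e-10). In the IGF axis 2 of 12 rose, Igfbp4 and Igfbp5, and 5 fell, Igfbp2, Igfbp3, Igfbp7, H19 and Igf2bp1. Igfbp5, an IGF-binding protein of differentiating myoblasts, rose from 129, 101 and 93.8 CPM to 439, 452 and 445 CPM (2.06 ± 0.09, adjusted p = 3.35e-10). None of 15 mitochondrially encoded genes changed over 2-fold, except 1 that rose when 0 h replicate 2 was left out. At the adjusted p alone 8 rose and 1 fell, the latter count lying between 0 and 4 when 1 library was left out, with 4 without 0 h replicate 1.

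Notch genes fell or did not pass 2-fold, and the FoxO list held changes in both directions. In the Notch list 5 of 16 fell over 2-fold, where 11.6% of all genes did, namely Notch4, Jag1, Nrarp, Megf10 and Lfng. Lfng, a glycosyltransferase, fell from 26.1, 28.3 and 28.2 CPM to 4.67, 5.72 and 5.42 CPM (-2.38 ± 0.09, adjusted p = 1.03e-10). The interaction was above 0 for 7 of 16 and below 0 for 2, where 13.3% and 20.7% of all genes were. Jag1, a ligand and 1 of the 2 below 0, fell by 1.08 on the log2 scale with dox. It had a change of 0.51 untreated (interaction -1.64 ± 0.18, adjusted p = 3.05e-06). In the FoxO and nutrient withdrawal list 4 of 29 rose (Klf15, Ddit4, Dbp and Hlf) and 3 fell (Irs1, Cited2 and Pdk4), where 5.19% and 11.6% of all genes did, so the share that fell was near that of all genes. Irs1, the insulin receptor substrate, whose gene overlaps Gm9747 on the opposite strand, fell from 131, 138 and 129.8 CPM to 15.03, 16.7 and 14.3 CPM (-3.11 ± 0.07, adjusted p = 7.73e-13), as it did untreated (-3.16). Klf15, a fasting-responsive factor, had 1 count at 0 h and 480 counts at 24 h over the dox libraries, a ratio of 285 with a 95% counting interval from 50.9 to 11282.

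Where the level averaged 5 CPM or more over the 6 libraries, the 15 largest rises with dox lay mostly outside these lists. Avil, which encodes the actin-severing protein advillin, was at 0.683, 0.661 and 0.265 CPM at 0 h and 574, 597 and 590.3 CPM at 24 h, a 1072-fold rise (log2 10.07 ± 0.12, adjusted p = 7.16e-15), and reached 581, 667 and 591 CPM untreated. Car6, a carbonic anhydrase, went from 0.299, 0.0509 and 0.159 CPM to 115, 117 and 117 CPM (9.34 ± 0.14, adjusted p = 4.63e-14), with 10.08 when 0 h replicate 1 was left out. Ostn, the muscle-secreted peptide osteocrin, had no count in the 3 growth medium libraries and was at 16.4, 19.1 and 17.8 CPM at 24 h, at least 365-fold higher against a floor of 3 counts over the group. Each of these genes was at or near 0 in every growth medium library with dox and present in every starved library. Cd74, the invariant chain of antigen presentation, rose from 2.73, 2.24 and 2.59 CPM to 77.1, 97.5 and 97.1 CPM (5.17 ± 0.12, adjusted p = 1.56e-12), and Cox6a2, the muscle form of a cytochrome oxidase subunit, rose from 0.171, 0.0509 and 0.106 CPM to 38.8, 42.1 and 38.9 CPM (8.42 ± 0.17, adjusted p = 3.53e-13). The others of the 15 that rose most were Fgf21, Cdsn, Taf7l, Dyrk4, Sspo, Tenm2, Tenm4, Otog, H2-M10.1 and P2rx3, the last of which overlaps Ssrp1 on the opposite strand so that its count is uncertain. Otog was at 24.05, 24.7 and 25.03 CPM at 24 h with dox and at 6.06, 5.24 and 4.39 CPM untreated, although its interaction was not called (2.78 ± 1.07, adjusted p = 0.0538).

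By the same limit on level, the 15 genes that fell most included Id3, Id2, Lox, Il33, Krt14, Col8a1 and Thbs1. Omd, the bone proteoglycan osteomodulin, fell from 28.5, 37.7 and 44.2 CPM to 1.32, 1.02 and 1.32 CPM (-4.87 ± 0.18, adjusted p = 5.73e-11). Adam12, a metalloprotease of myoblasts, fell from 34.01, 28.4 and 27.1 CPM to 1.35, 1.33 and 2.01 CPM (-4.20 ± 0.14, adjusted p = 2.76e-11), and further untreated (interaction 1.20 ± 0.25, adjusted p = 0.00103). Kcnj2, an inward rectifier potassium channel, fell from 33.3, 28.6 and 31.8 CPM to 2.23, 1.65 and 2.19 CPM (-3.91 ± 0.11, adjusted p = 6.16e-12). Also among the 15 were Car8, Car3, Olfml3 and Hist1h2ao, the last a histone gene with near-identical copies, and the interaction was not called for any of these 4 genes. Peg10, an imprinted gene, and Susd2, a membrane protein, were named from earlier results of these data, as were Adgrg1 and Slc17a7. Peg10 fell from 155, 134 and 129 CPM to 14.6, 12.8 and 16.2 CPM (-3.24 ± 0.09, adjusted p = 3.94e-12) and Susd2 from 3.33, 2.90 and 2.33 CPM to 0.852, 0.627 and 0.781 CPM (-1.89 ± 0.25, adjusted p = 1.87e-05). Slc17a7, a vesicular glutamate transporter, was at 16.9, 14.96 and 14.9 CPM and 13.98, 13.6 and 14.2 CPM with dox and its change was not called (-0.15 ± 0.08, adjusted p = 0.121).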

How the data were processed

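RNA was poly(A)-selected and sequenced as paired ends. Reads went through nf-core/rnaseq, and the table that the authors deposited holds estimated counts from Salmon for each transcript in 12 libraries, not scaled to depth or length. Per library, 32.0% to 39.1% of values had a fractional part. The labels name mm10, and the annotation release and strand setting are not given in the sources used here. Counts of 109617 transcripts were summed over 45706 gene IDs and rounded. GENCODE vM21 held 98.72% of the transcripts and gave symbols for 45143 genes. The tables of other time points and lines were not used here.

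Each pair of groups was fitted alone with edgeR 4.0.16 in R 4.3.3 (filterByExpr, TMM, quasi-likelihood test, Benjamini-Hochberg adjustment over all genes tested), and the interaction in a fit of the 12 libraries. SEs were derived from the F statistic. With 3 libraries against 3, an exact permutation test of a single value cannot go below p = 0.1. Counting intervals (95%) and floors (3 counts over a group) cover counting error only. Replicates are described as biological, and their numbers did not pair the samples.

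The members, the 33 gene lists and the named genes were chosen with earlier results of these data known. Named were the 15 genes with the largest change with dox in each direction (adjusted p under 0.05, at least 5 CPM, no overlap), the 10 with the largest interaction in each direction, up to 4 extremes of each list in each direction, and 18 genes fixed by name. Some genes that the rule names are not reported here. Alternatives were DESeq2 1.42.0, RLE factors, library totals only, no filter on low counts, libraries thinned to the smallest, all 12 libraries in 1 fit, replicate number as a block, and leaving out each library. On simulated data with 200 changed genes, edgeR recovered 197 with 8 false calls for the dox comparison (13803 genes) and 192 with 12 false calls for the interaction (14135 genes). Sums and summaries used pandas 2.3.3 and numpy 2.4.6 under Python 3.11.15, intervals used scipy 1.17.1, and plots were drawn with matplotlib 3.10.9.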

Additional observations from a re-analysis of the deposited data

Results flagged for a closer look

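The interaction test, in which the change between 0 and 24 h with dox is set against the change without, was called for 2996 genes below 0 and 1926 above 0. Values below are the change with dox minus the change without, on the log2 scale, from edgeR's test at an adjusted p under 0.05, and no explanation of them was tested.

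Where the level averaged 5 CPM or more over the 12 libraries, the largest below 0 after Rpl35a-ps6 were Rgs2 at -3.72, Atf3 at -3.66, Cyp4b1 at -3.41, Extl1 at -3.32, Myc at -3.13, Ptgs2 at -2.88, Hmox1 at -2.77, Ankrd1 at -2.68 and Socs2 at -2.64. Cyp4b1, a cytochrome P450, was at 2.61, 2.51 and 2.65 CPM at 24 h with dox and 17.2, 16.2 and 17.8 CPM untreated. Extl1, a heparan sulfate transferase, was at 2.13, 2.14 and 2.33 CPM at 0 h with dox and 0.125, 0.316 and 0.105 CPM untreated, and at 19.4, 18.8 and 17.96 and 14.3, 18.5 and 14.7 CPM at 24 h, so the dox and untreated libraries did not overlap at the start and overlapped at the end.

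By the same limit the largest above 0 after Rpl35a-ps2 were Atp1b2 at 3.00, 2210011C24Rik at 2.83, Dock8 at 2.25, Prph at 2.22, Clmn at 2.08, Cd248 at 2.00, Klc3 at 1.96, Wnt4 at 1.96 and Ano1 at 1.89. Atp1b2, a sodium pump subunit, was at 24.4, 19.1 and 19.6 CPM and 8.28, 9.72 and 9.99 CPM with dox against 3.62, 3.63 and 3.25 CPM and 0.221, 0.154 and 0.188 CPM untreated. Dock8, an exchange factor for Cdc42, was at 31.4, 28.1 and 22.01 CPM and 25.9, 22.3 and 21.3 CPM with dox and fell from 27.8, 25.2 and 23.4 CPM to 5.22, 4.20 and 4.01 CPM untreated. Wnt4, a secreted signal, fell from 16.98, 13.4 and 15.1 CPM to 4.40, 4.94 and 4.71 CPM with dox and from 8.75, 8.63 and 8.70 CPM to 0.354, 0.694 and 0.938 CPM untreated. Klc3 overlaps Ercc2 on the opposite strand.

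The pseudogenes Rpl35a-ps2 at 10.75 and Rpl35a-ps6 at -11.53 share sequence with Rpl35a and with each other, so their estimated counts are uncertain. Rpl35a-ps6 was at 0, 16.1 and 17.8 CPM in the 3 growth medium libraries with dox, and Rpl35a-ps2 at 0, 0 and 0 CPM there and 10.9, 19.7 and 8.17 CPM without dox. At 24 h with dox Rpl35a-ps2 was at 8.78, 8.03 and 8.39 CPM, at least 174-fold higher against a floor of 3 counts over the group.

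Among the genes fixed by name, several of them from earlier results of these data, the interaction was -0.37 for Myod1, -2.23 for Mymk, -2.00 for Myf5, -0.38 for Cdkn1a, -0.28 for Ccnd1 (a call lost under several alternatives), -1.23 for Peg10, 1.35 for Adgrg1, 1.59 for Slc17a7, 2.27 for Cdh23, 1.39 for Mcam, 1.25 for Cadm4 and 1.46 for Itga3.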

How the results depend on the processing

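Of the counts that answer the comparisons, 193 of 196 recomputed values stayed within 1.5 times the main count. The exceptions were the genes that rose with dox with no filter on low counts (1085 against 723) and the interaction calls with library totals only (3903 above and 1440 below 0), where the median of the interaction over all genes moved from -0.05 to 0.15. Leaving out 1 library in turn gave 717 to 810 genes up and 1645 to 1705 down with dox, 1245 to 1413 up and 2289 to 2341 down untreated, 1643 to 1953 interactions above and 2586 to 3032 below 0, 466 to 516 genes up and 1262 to 1287 down in both settings, and 29 ATF4 targets up, 37 to 38 matrix and 38 to 39 mitosis genes down, and 5 to 6 ribosome biogenesis genes up with 44 interactions below 0.

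Same-numbered libraries did not deviate together (correlations of 0.067, -0.008 and -0.021 with dox), so the numbers are not taken as pairs. With the replicate block 745 genes rose and 1622 fell with dox, with 1990 interactions above and 3060 below 0, and none of the counts given in the preceding paragraph moved by 1.5 times.

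For single named genes with dox, 2832 recomputed values kept direction and side of the threshold, 32 lost the call, 6 gained it and 10 changed sign. For the interaction these counts were 634, 9, 4 and 1. The sign changes were in values that were not called with the main settings. Of these Rpl35a-ps6 gained a call with no filter (-0.41) and without 0 h dox replicate 1. Leaving out 1 library gave -0.0913 to 0.0845 for Cdh23, -0.0561 to 0.0607 for Cadm4 and -1.07 to 0.0596 for Rpl35a-ps6 with dox, and -0.238 to 0.4882 for the interaction of Mymx. Cdh23 with dox was 0.0048 with library totals only, 0.0231 with no filter, 0.0845 without 0 h dox replicate 1, 0.0066 without 24 h dox replicate 1 and 0.066 without 24 h dox replicate 3. Cadm4 with dox was -0.0234 with all 12 libraries in 1 fit, -0.0175 when thinned, -0.0418 without 0 h dox replicate 3 and -0.0561 without 24 h dox replicate 2. Rpl35a-ps6 was 0.0596 without 0 h dox replicate 3, and the interaction of Mymx was -0.238 without 0 h dox replicate 2. With library totals only the interactions of Myod1 (-0.16), Cdkn1a (-0.18) and Ccnd1 (-0.08) were no longer called. That of Ccnd1 also lost its call with DESeq2, RLE factors and thinning (-0.22 to -0.23), and without 0 h dox replicate 1, 24 h dox replicate 1 or 0 h untreated replicate 3. That of Cdh15 was called with DESeq2, RLE factors and library totals only (0.20 to 0.35). The cause of these shifts was not tested. Genes under about 1 CPM, such as Mymx, Rbm24 and Actc1, rest on few counts.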
